A study of Mus musculus with 2 samples.

Results

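The genes described here are the amino acid transporters of 7 solute carrier families, Slc1, Slc3, Slc6, Slc7, Slc36, Slc38 and Slc43, in endothelial cells of the embryonic mouse kidney. The rule that picks them reads gene names and no measured value. Every gene whose symbol in the array annotation is one of these family names followed by "a" and a number was taken, provided that it had a probe set assigned to 1 gene. This gave 58 genes with 118 probe sets, out of 18193 genes on the array. The samples form a single group of 2 arrays. Each array was hybridised with RNA from a pool of approximately 5 to 10 kidneys of CD-1 mice at E15.5 (Theiler stage 23), and all mice carried the transgene Tg(TIE2GFP)287Sato, which places GFP under the Tie2 promoter. The kidneys were trypsinised, GFP-positive cells were collected by FACS, and the RNA went through 2 rounds of amplification before it was labelled with biotin. No control or comparison group belongs to these samples, so no test between conditions is possible and no p-value is given. The pools are called replicate 1 and replicate 2 as the titles number them. Whether separate litters went into them is not stated in the labels, and their spread may therefore be technical.

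Amino acids cross the plasma membrane on carriers that differ in their substrates and in what drives them. Sodium-coupled carriers of the Slc1, Slc6 and Slc38 families concentrate amino acids inside the cell. Exchangers formed by a heavy chain of the Slc3 family and a light chain of the Slc7 family swap one amino acid for another, so that glutamine taken up by the first kind can pay for the entry of leucine by the second. Members of the Slc36 and Slc38 families also work on the lysosome, where amino acids are sensed by the kinase complex mTORC1. In the mature kidney many of these carriers are known from the proximal tubule, which reclaims filtered amino acids. In endothelium the best known are the arginine carrier Slc7a1, which feeds nitric oxide synthesis, and the leucine carrier Slc7a5, which serves the blood-brain barrier.

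The values are intensities in arbitrary units, 1 per probe set, which the authors had scaled so that both arrays share a trimmed mean. Each gene was read from its brightest probe set, by the mean of the log2 values. It was called above background where that probe set exceeded, on both arrays, the 95th percentile of 83 probe sets for receptors of smell and taste, which was 202 on replicate 1 and 204 on replicate 2. Probe sets bind their targets with different strength, so intensities of different genes are not set against each other. All 12 pan-endothelial markers were above background, among them Tek (the gene of Tie2) with 15908 and 21499, and so were all 12 macrophage markers, among them Csf1r with 34029.5 and 36806. The Tie2 promoter is also known to be active in some blood and myeloid cells. Of 11 measured proximal tubule markers 1, the bicarbonate carrier Slc4a4, was above background and 2 passed on 1 array. Above background were also 4 of 8 nephron progenitor markers and 3 of 9 ureteric bud markers, with 4 more on 1 array. So were 3 of 5 podocyte markers (Synpo, Podxl and Ptpro), while Wt1 passed on 1 array and Nphs1 on neither. Each of these shares was below the 61.0% of all genes on the array. The sample titles read FLK1, while the mice report Tie2. The source name gives renal artery and vein endothelium, while the protocol starts from dissociated whole kidneys. The pools differed in renal stroma markers, of which 11 of 12 were above background, all 11 higher in replicate 2, with intensities of the 12 that summed to 27148 in replicate 1 and 100299 in replicate 2.

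Of the 58 transporter genes, 31 (53.4%) were above background on both arrays, 4 passed the limit on 1 array, each time replicate 2, and 23 on neither. Over all genes of the array 61.0% were above background on both arrays and 6.49% on exactly 1 array. Counted on each array by itself, 64.0% of all genes passed on replicate 1 and 64.5% on replicate 2. Of the 118 transporter probe sets 53 were above background, and over all probe sets with 1 gene the share was 55.0%. Since a gene is read from its brightest probe set, the members were also counted by their number of probe sets. Of 28 members with 1 probe set 11 were above background (all such genes, 44.5%), of 16 members with 2 probe sets 9 were (all such genes, 70.4%), and of 14 members with 3 or more 11 were (all such genes, 86.1%). The members' shares (39.3%, 56.2% and 78.6%) were below the array's share in each class. The classes hold few members, and these gaps were not tested. Since sorted cells were read in bulk, fewer cells of a type and less RNA per cell cannot be told apart.

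**Figure D1:**
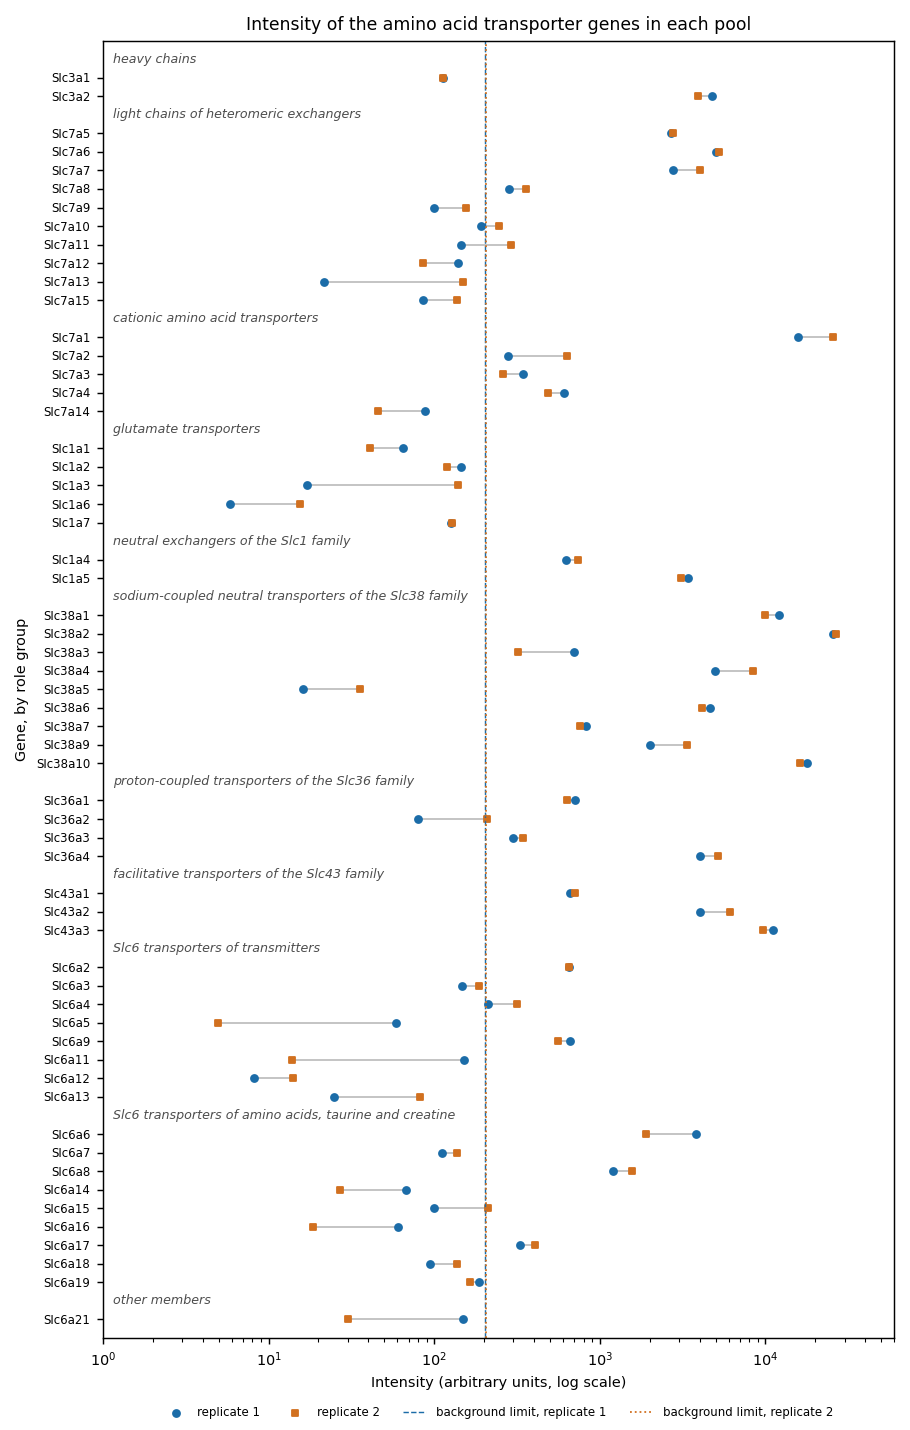
Intensity of each of the 58 transporter genes in each pool (x axis, arbitrary units, log scale), one line per gene and grouped by role, with circles for replicate 1, squares for replicate 2 and vertical lines at the background limits of 202 and 204. The 5 glutamate transporters lie left of the limits, while 8 of 9 Slc38 genes and all 3 Slc43 genes lie right of them in both pools.

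The heavy chains carry the light chains of the exchangers to the membrane. Slc3a2, the heavy chain found in most cell types, had intensities of 4779 and 3895 in replicates 1 and 2, well over the limits in both pools. Slc3a1, the heavy chain of the tubular cystine carrier, had 113 and 113, below the limit on both. Its partner in the proximal tubule, Slc7a9, lay below the limit as well, with 100.2 and 155. So did Slc7a13, an acidic amino acid carrier of the proximal tubule, with 21.7 and 149.9.

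Of 10 light chains, 4 were above background, 2 passed on 1 array and 4 on neither. Slc7a5, the leucine and large neutral amino acid exchanger, had 2705 and 2748. Slc7a6, which exchanges cationic for neutral amino acids, had 5049.7 and 5253. The pools were close for both genes, with centred log2 differences (replicate 1 minus replicate 2) of 0.01 for Slc7a5 and −0.02 for Slc7a6. Slc7a7, which does the same exchange and is known from the basolateral side of epithelia and from macrophages, had 2747 and 4039. It was higher in replicate 2, with a log2 difference of −0.52. Slc7a8, a second large neutral amino acid exchanger, had 282 and 359, under 1.5 times the limit on replicate 1. Slc7a10, which carries small neutral amino acids and D-serine, had 191 and 247. Slc7a11, the cystine and glutamate exchanger that supplies glutathione synthesis, had 145 and 292. For both of these replicate 1 was under the limit and replicate 2 over it. Slc7a12 was below background with 139 and 85.7.

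The cationic carriers bring in arginine, lysine and ornithine, and 4 of the 5 measured were above background. Slc7a1, the widespread arginine carrier, had 15787 and 25547 on its brightest probe set. Its second probe set above background had 4800.0 and 3319.6. The first was higher in replicate 2 (log2 difference −0.66) and the second in replicate 1 (0.57), so the probe sets of Slc7a1 give no settled order of the pools. Slc7a2, a cationic carrier known from liver and from activated macrophages, had 281 and 638. It was higher in replicate 2 by a centred 2.22-fold, and 1 of its 4 probe sets was above background. Slc7a3 had 345 and 260.2, and Slc7a4, a family member whose substrates are unsettled, had 609 and 483 on 1 of 3 probe sets. Slc7a14 was below background with 87.5 and 45.6.

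None of the 5 high-affinity glutamate transporters was above background on either array. Slc1a1, the epithelial and neuronal glutamate carrier, had 65.2 and 40.8 on the brightest of its 3 probe sets. Slc1a2, the main glutamate carrier of astrocytes, had 144 and 119 on the brightest of 5. The neutral exchangers of the same family were both detected. Slc1a5, the glutamine exchanger, had 3418 and 3074, a log2 difference of 0.19. Slc1a4, which exchanges alanine, serine and cysteine, had 623 and 743. The Slc1 family was split by substrate in both pools, with the acidic carriers under the limit and the neutral exchangers over it.

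The Slc38 family takes up glutamine and other neutral amino acids together with sodium, and 8 of its 9 measured genes were above background. Slc38a2, whose protein rises when amino acids run short, had 25728 and 26599.6, a log2 difference of −0.01. Slc38a1, a glutamine carrier of brain and of dividing cells, had 12009 and 9982. The pools were close for both. Slc38a4, an imprinted gene known from liver and placenta, had 4960.1 and 8435, higher in replicate 2 (−0.73). Slc38a3, the glutamine carrier of liver, kidney and astrocytes, had 697 and 319 on 1 of its 2 probe sets, higher in replicate 1 by a centred 2.24-fold. Slc38a6 had 4600.3 and 4137, also on 1 of 2 probe sets. The only family member below background was Slc38a5, with 16.0 and 35.7. Slc38a10 had 17896 and 16243 on its brightest probe set.

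Carriers of the lysosome were detected in both pools. Slc38a9, which reports lysosomal arginine to mTORC1, had 2014 and 3361, a log2 difference of −0.70. Slc38a7, which exports glutamine from lysosomes, had 826 and 762. Slc36a1, a proton-coupled carrier of small neutral amino acids at the lysosomal membrane, had 706 and 629.8. The pools stood within 0.20 log2 units of each other for Slc38a7 and Slc36a1, and replicate 2 was the higher for Slc38a9. Slc36a4, a high-affinity member of the same family, had 4019 and 5196. Slc36a3 had 299.8 and 343, near the limit, and Slc36a2, known from kidney and muscle, had 80.4 and 208, over the limit in replicate 2 by a small margin.

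The Slc43 genes were all above background. Slc43a3, known from human cells as a carrier of purine bases, had 11052 and 9611. Slc43a2, a facilitative carrier of large neutral amino acids, had 4002 and 6101, higher in replicate 2 (−0.57). Slc43a1, its close relative, had 661 and 706.

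The Slc6 genes had the lowest share of detected members beside the glutamate transporters. Of the 8 measured transmitter carriers 3 were above background. Slc6a9, the glycine carrier of glia and erythroid cells, had 665 and 557. Slc6a2, the noradrenaline carrier, had 649 and 652 on 1 of its 4 probe sets. Slc6a4, the serotonin carrier, had 212 and 316, within 1.5 times the limit on replicate 1. The serotonin carrier is also known from platelets, and 4 of 6 platelet markers were above background, beside 61.0% of all genes. Their centred log2 differences had a median of −0.15 and ran from −1.29 (Ppbp, with 451 and 1129) to 0.24. Of 10 neural markers 3 (30%) were above background, with differences from −0.32 to 0.33. Of 8 erythroid markers 5 (62.5%) were, close to the 61.0% of all genes. The erythroid differences had a median of 0.22 and ran from −0.60 to 1.31. The part of such cells in the values of Slc6a2, Slc6a4 and Slc6a9 was not tested. The dopamine carrier Slc6a3 had 148 and 188, and Slc6a5, the neuronal glycine carrier, had 58.4 and 4.92, all below the limits.

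Among the 9 measured Slc6 genes grouped as carriers of amino acids, taurine and creatine 3 were above background. Slc6a6, the taurine carrier, had 3831 and 1891 on its brightest probe set, higher in replicate 1 by a centred 2.08-fold. Slc6a8, the creatine carrier, had 1199.8 and 1559, a log2 difference of −0.34. Slc6a17, a vesicular carrier of neutral amino acids in neurons, had 331 and 405 on 1 of 3 probe sets. The first of these again depended on the probe set, since the other one above background for Slc6a6 had 698 and 1219, higher in replicate 2 (−0.77). Slc6a15, a neuronal carrier of branched-chain amino acids and proline, passed the limit only in replicate 2, with 99.9 and 211. Slc6a19, the apical neutral amino acid carrier of the proximal tubule, had 186 and 165, below the limits like Slc3a1, Slc7a9 and Slc7a13. So was Slc6a18, also known from the apical side of the tubule, with 94.3 and 137, while Slc36a2, another such gene, passed in replicate 2 as given above. Slc6a7, the proline carrier of brain, had 112 and 137, and Slc6a14, a broad carrier of neutral and cationic amino acids, had 67.4 and 27.1. Slc6a21, in no role group, was below background with 149 and 30.0. Over all 23 members under both limits the intensities ran from 4.92 to 188. Differences between the pools below the limits were not read.

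**Figure D2:**
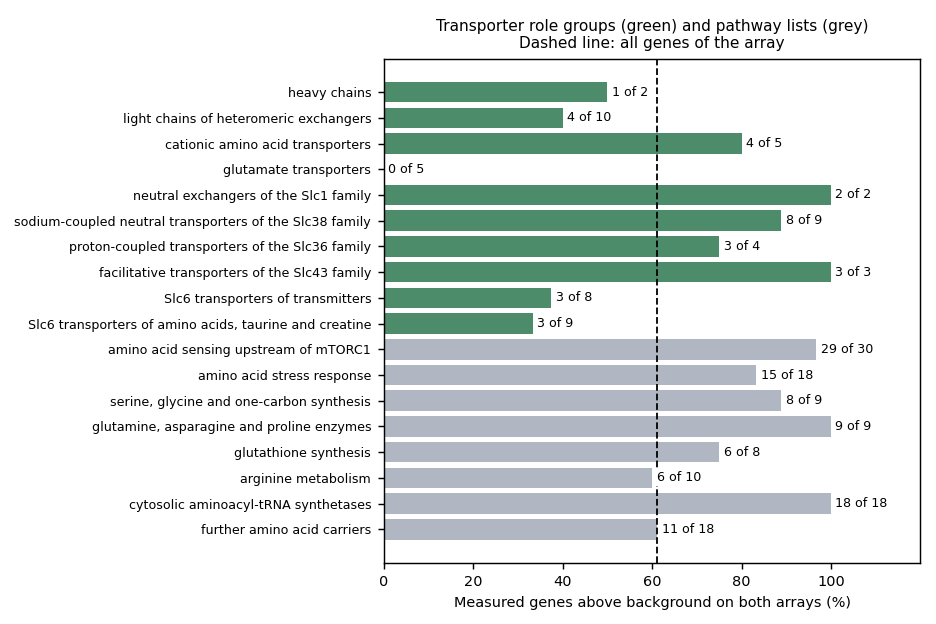
Share of the measured genes above background on both arrays (x axis, percent) in each transporter role group (green) and each pathway list (grey), with the count beside each bar and a dashed line at the array's share of 61.0%. Shares ran from 0 of 5 glutamate transporters to 3 of 3 Slc43 genes and 18 of 18 aminoacyl-tRNA synthetases.

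For 41 of the 58 members 62 promoters were found in the RefSeq table of GRCm38.p6 and searched on both strands in the 250 bases before the start of transcription. The core of the amino acid response element, TGATGCAA, to which Atf4 and its partners bind when amino acids are scarce, was found in 0.791% of all 32851 promoters of the table and in 2 of the 62 promoters, those of Slc7a11 and Slc7a7. The E-box CACGTG, a core bound by regulators of lysosomal genes and by Myc, reads the same on both strands and was found in 6.02% of all promoters and in 9 of the 62, those of Slc1a6, Slc1a7, Slc36a1, Slc38a5, Slc38a7, Slc43a1, Slc6a3, Slc6a16 and Slc7a14. No promoter of a member held both words. The last 120 bases before the start are printed for Slc7a11, the member with 2 matches to the first word, and for Slc36a1 and Slc38a7, the lysosomal carriers with the second, each 5′ to 3′ on the strand of the gene with the match in capitals.
Slc7a11, chr3:50443614-50443733, minus strand: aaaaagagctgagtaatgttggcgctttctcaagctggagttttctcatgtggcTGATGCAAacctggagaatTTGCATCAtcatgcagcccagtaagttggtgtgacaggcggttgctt
Slc36a1, chr11:55204220-55204339, plus strand: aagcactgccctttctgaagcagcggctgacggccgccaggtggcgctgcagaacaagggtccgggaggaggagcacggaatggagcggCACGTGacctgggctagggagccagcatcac
Slc38a7, chr8:95853492-95853611, minus strand: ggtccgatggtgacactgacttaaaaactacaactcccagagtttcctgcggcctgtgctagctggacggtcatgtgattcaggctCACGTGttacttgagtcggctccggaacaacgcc
In Slc7a11 the word stands once on each strand, 66 to 59 and 47 to 40 bases before the start. In Slc36a1 the E-box lies 31 to 26 bases before the start and in Slc38a7 34 to 29 bases before it. Of the 2 genes with the response element word, Slc7a7 was above background and Slc7a11 on 1 array. Of the 9 with the E-box, Slc36a1, Slc38a7 and Slc43a1 were above background. A match is a description of the letters only.

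Differences between the pools were read on the 31 members above background. Values were centred, which removed an offset of −0.03 log2 units between the arrays. Of the 31, 15 were higher in replicate 1 and 16 in replicate 2, with a median of −0.01 beside 0.04 over all genes above background. Their differences had an SD of 0.50, beside 0.51 over all genes above background, and 22 of the 31 lay within 1 such SD of 0. Slc38a3 and Slc6a6 were over 2-fold higher in replicate 1, where 2.26% of all genes above background were. Slc7a2 was over 2-fold higher in replicate 2, where 2.57% of all genes above background were. With 1 array per pool these differences have no replicate check. The transporters above background as a set spread between the pools about as much as the array did. The stroma markers above background had a median of −1.95 and ran from −3.60 to −1.16. None of the 31 members reached the size of that median in either direction. The macrophage markers had a median of −0.07 and the pan-endothelial markers 0.19. The part of the stroma difference in the members higher in replicate 2, such as Slc7a2, Slc38a4 and Slc38a9, was not tested.

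**Figure D3:**
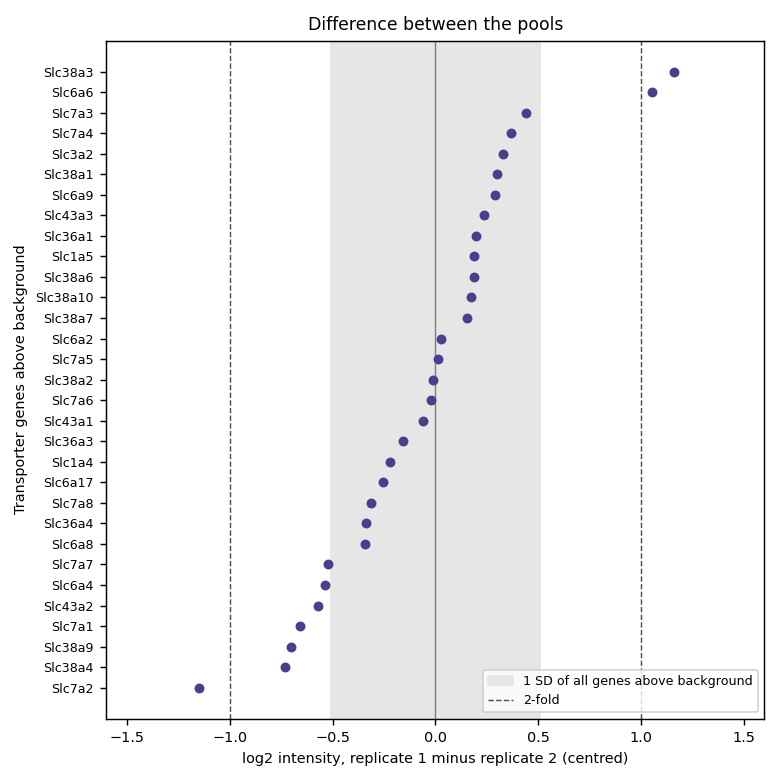
Centred log2 difference, replicate 1 minus replicate 2 (x axis), for each of the 31 transporter genes above background, in order of the difference, with 1 SD of all genes above background shaded and lines at 2-fold. 22 genes lie in the shaded band, Slc38a3 and Slc6a6 lie right of the 2-fold lines and Slc7a2 left of them.

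For 12 members more than 1 probe set was above background, and for 6 of these (Slc1a4, Slc6a6, Slc6a8, Slc7a1, Slc38a9 and Slc38a10) the probe sets differed in sign. Slc38a10 had 7 probe sets, all above background, with differences from −0.41 to 1.77. Its brightest probe set was close between the pools (0.17), while another had 8722 in replicate 1 and 2612 in replicate 2, a centred 3.42-fold. Slc38a9 had 6 of 7 probe sets above background, which ran from −0.70 to 0.16. For Slc38a1, Slc38a2, Slc38a4, Slc6a9, Slc7a6 and Slc43a2 the probe sets above background had the same sign, and those of Slc38a2 ran from −0.35 to −0.01. In 13 of the 30 members with several probe sets some were above background and some were not. Which transcripts each probe set reads was not analysed here.

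**Figure D4:**
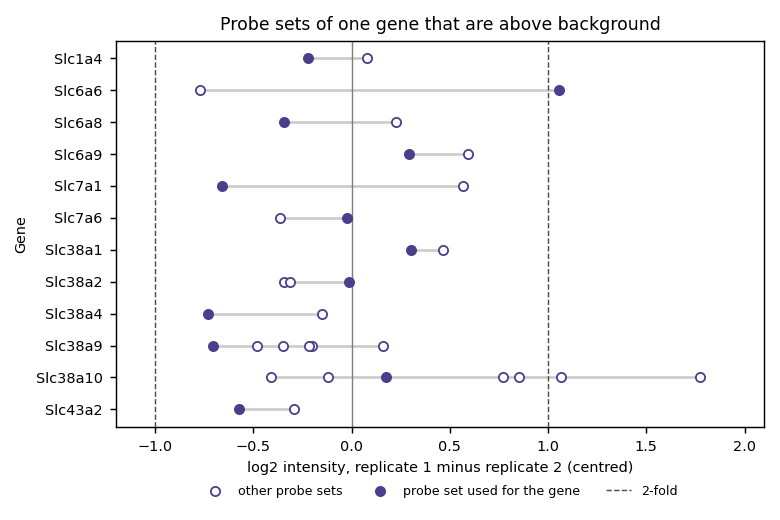
Centred log2 difference, replicate 1 minus replicate 2 (x axis), of each probe set above background for the 12 transporter genes with more than 1, with the probe set used for the gene filled and lines at 2-fold. The probe sets lie on both sides of 0 for 6 genes, and those of Slc38a10 reach from −0.41 to 1.77.

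Genes that sense, use and answer to amino acids were read in 8 pathway lists. Their differences come from each gene's brightest probe set, and agreement with its other probe sets was not checked. Of their 115 measured genes 98 (85.2%) were above background, beside the array's 61.0%, 5 passed on 1 array and 12 on neither. By number of probe sets, 39 of 48 genes with 1 (81.2%, all such genes 44.5%), 26 of 33 with 2 (78.8%, all such genes 70.4%) and 33 of 34 with 3 or more (97.1%, all such genes 86.1%) were above background. Amino acid sensing upstream of mTORC1 had 29 of 30 genes above background. Mtor, the kinase, had 9055 and 8214. Rptor, the subunit that recruits its substrates, had 4021 and 1957 (1.07), and Fnip1, the partner of folliculin, had 838 and 1751 (−1.03). These were the list's largest differences and they ran in opposite directions. The exception was Sesn2, a leucine sensor, with 188 and 131.

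The amino acid stress response had 15 of 18 genes above background. Eif2ak4, the kinase that senses uncharged tRNA, had 2635 and 2248, and Atf4, the transcription factor it acts through, had 9169 and 7512. Trib3, a target that damps this response, passed the limit only in replicate 2, with 166 and 316. Sesn2 and Nupr1 (43.2 and 163) were below the limits. Among the list's genes above background, Cth, which makes cysteine, had the largest difference, with 397 and 892 (−1.13). The glutathione-degrading enzyme gene Chac1 followed with 371 and 272 (0.49), under 1.5 times the limit on replicate 2.

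Enzymes of serine, glycine and one-carbon synthesis were above background in 8 of 9 cases. Phgdh, the first enzyme of serine synthesis, had 5914 and 3699.9 (0.71), and Psat1, the next, had 28799 and 27239. Among the genes above background, the largest differences were those of the serine hydroxymethyltransferases Shmt1 and Shmt2, each 0.78. Gldc, of the glycine cleavage system, passed only in replicate 2 with 105 and 262. All 9 measured enzymes of glutamine, asparagine and proline were above background, among them glutamine synthetase (Glul) with 8037 and 9474 and glutamate dehydrogenase (Glud1) with 29278 and 26520.3. Prodh, which degrades proline, had 1585 and 539, the list's largest difference (1.59), ahead of Got1 (0.65).

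Of 8 glutathione genes 6 were above background. Gclc and Gclm, the subunits of the rate-limiting enzyme, had 3687 and 4025 for the first and 660.0 and 695 for the second. Gsr, glutathione reductase, was higher in replicate 2 with 3707 and 7223 (−0.93). Cbs (152 and 68.2) and Ggt7 (8.13 and 7.33) were below the limits.

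Arginine metabolism had 6 of 10 genes above background, a share of 60.0% that is close to the array's. Nos3, the endothelial nitric oxide synthase, had 4952 and 2456, higher in replicate 1 (1.05). Nos1, the neuronal enzyme, had 625 and 1085 (−0.76). The inducible enzyme Nos2 had 30.3 and 27.6, the arginase Arg2 had 65.7 and 51.2, and the arginine-making enzyme Ass1 had 139 and 113, all below the limits. Arg1, the arginase of liver and of some macrophages, passed only in replicate 2 with 121 and 589.

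All 18 measured cytosolic aminoacyl-tRNA synthetases, which load amino acids onto tRNA, were above background, and 16 of the 18 were higher in replicate 1. Aars, for alanine, had 9019.8 and 8749, and Cars, for cysteine, had 907 and 758. The list's median difference was 0.21, beside a median of 0.04 and an SD of 0.51 over all genes above background. Medians of the other pathway lists ran from −0.07 (glutathione synthesis) to 0.30 (serine, glycine and one-carbon synthesis). Vars, for valine, had 2704 and 1166 (1.25), followed by Wars, for tryptophan, with 7278 and 4324 (0.79). A list of further amino acid carriers, which also holds Slc6a20a and Slc6a20b of the Slc6 family, had 11 of 18 measured genes above background (61.1%). Without those genes it had 11 of 16 (68.8%). Slc16a10, a carrier of aromatic amino acids, had 668 and 1183 (−0.79). Ctns, the lysosomal cystine carrier, had 208 and 428 (−1.01), under 1.5 times the limit on replicate 1. Slc15a1, the intestinal peptide carrier, was below the limits with 54.4 and 54.3. The vesicular glutamate carrier Slc17a7 passed only in replicate 1, with 236 and 170.2, and the mitochondrial glutamate carrier Slc25a18 only in replicate 2, with 157 and 222.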

How the data were processed

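The deposited table holds 1 intensity per probe set for 2 arrays of 1 group, linear and not logged. GCOS, the scanner's software, is named without a version in the submitters' processing notes, and no source used here gives the genome build of the annotation. The trimmed mean (2% left out at each end) was 1500.01 on both arrays, so the authors had scaled the deposited intensities before deposit. The study's methods concern a different array and were not applied. The depth of an array cannot be stated, and the number of arrays limits the precision.

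Of 45101 probe sets, 34945 had 1 gene in the platform annotation and were used, 932 had several, 9160 had none and 64 were controls. Log2 differences are replicate 1 minus replicate 2, centred on the medians of the probe sets above background. Python 3.11.15, pandas 2.3.3 and numpy 2.4.6 were used, and the scripts were tested on simulated data. The members, though the rule reads only names, and the gene lists were chosen with earlier results of these data known. By rule, all members above background on 1 or 2 arrays were given with values, the rest by range and for set examples. In each pathway list the first 2 measured genes and the genes that did not pass on both arrays were named. So were the largest 2 differences among genes above background. Some of these genes are given under the other observations. Other background limits, choices of probe set, scalings and a pseudocount were tried. Some listed transporters, such as Slc38a8 and Slc38a11, were not analysed here. No promoter was printed or searched for Slc1a5, Slc6a2, Slc6a6, Slc6a7, Slc6a8, Slc6a15, Slc6a18, Slc7a2, Slc7a3, Slc7a4, Slc7a5, Slc7a12, Slc7a13, Slc36a2, Slc38a1, Slc38a3 and Slc43a3.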

Additional observations from a re-analysis of the deposited data

How the results depend on the processing

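The count of 31 members above background lay between 24 and 40 under the other limits and choices of probe set tried, each within 1.5 times of 31. With a limit of 100 on both arrays it was 40 of 58, beside 72.7% of all genes. On replicate 2 alone 35 passed (all genes, 64.5%) and on replicate 1 alone 31 (all genes, 64.0%). The pathway count of 98 lay between 85 and 105. Members over 2-fold apart numbered 1 (Slc6a6) at 2 times the limit. With the median of all probe sets of a gene they numbered 2, Slc38a6 and Slc38a10, of which 0 were among the 3 given. The log2 difference of Slc6a6 then turned to −0.43. For Slc38a6 and Slc6a6 this median takes in probe sets below both limits. These had 17.56 and 142 for Slc38a6 and, among others, 20.45 and 22.2 for Slc6a6. The median difference of −0.01 turned to 0.02 at a limit of 100 and to 0.01 with probe sets of the plain suffix. The limit of 100 also brought 2 glutamate transporters, 7 light chains and both heavy chains over it, while 2 times the limit left 2 cationic carriers. The heavy chain Slc3a2 has no probe set of the plain suffix, so that choice left 0 of that group. No paired analysis was possible because the design has 1 group. No difference between the pools can be had without either replicate. Members within 1.5 times of the limit (Slc6a4, Slc7a2, Slc7a3, Slc7a8 and Slc36a3) are those for which signal over background limits the call most.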

Other observations

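Probe sets that carry the names of member genes but fall outside the rule were read as well. Slc7a6os, the gene on the opposite strand of Slc7a6, had probe sets with 2052 in replicate 1 and 1847 in replicate 2, and with 907 and 737, all above background. Those of Slc36a1os (70.6 and 168) and Slc6a19os (141 and 90.4) were below the limits. So were Slc6a20a, with 11.3 and 2.88, and the brighter of the Slc6a20b probe sets, with 158 and 48.6. A probe set shared by Slc1a2 and Gm13872 had 25.0 and 86.5, below the limits like those of Slc1a2 alone. The mitochondrial carriers of aspartate and glutamate were above background, Slc25a12 with 6530.2 and 5943 and Slc25a13 with 1538 and 1532, as was the ornithine carrier Slc25a15 with 4985 and 5269. A second vesicular glutamate carrier, Slc17a6, (60.6 and 7.87) and the vesicular GABA carrier Slc32a1 (8.92 and 11.2) were below the limits. These genes were chosen after their values were seen.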
